A study of Homo sapiens with 7 samples.

Results

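The baseline of polyadenylated RNA in HEK293 cells, a transformed line derived from human embryonic kidney, was described from the control libraries of both versions of the 3′ end sequencing method used in the study. The members were the 2 libraries of cells that received a control siRNA (siCtrl), out of 7 libraries in all, and they were chosen because siCtrl is the only control condition measured with both protocols. One was made with 3′READS and belonged to a set of 5 libraries, with siStar-PAP, siPAPα, siPAPγ and the double KD of PAPα and PAPγ. The other was made with 3′READS+ in a second batch, together with 1 further siStar-PAP library. Star-PAP, PAPα and PAPγ are nuclear poly(A) polymerases, and each KD used siRNAs against the named enzyme. No condition had a second library within a protocol, and the protocol and the batch cannot be told apart. A difference within the siCtrl pair therefore has no replicate check, and intervals on it cover counting error only, since nothing in the sources used here says that reads were collapsed by molecule. The siStar-PAP libraries, which share no library with the siCtrl pair, served as a second pair of the same contrast.

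Most human mRNAs end at a polyadenylation site (PAS), where the precursor is cut downstream of a hexamer such as AAUAAA that is bound by CPSF, and a poly(A) polymerase then adds the tail. Most genes have several PASs, and the choice among them, alternative polyadenylation, sets how much of the 3′UTR the mRNA keeps. In both protocols, RNA fragments that carry a poly(A) tail are captured, most of the tail is removed by RNase H and the remaining end is sequenced. 3′READS captures with a chimeric U/T oligo and 3′READS+, a later version, with an oligo that holds locked nucleic acids. A read counts as supporting a PAS only if it ends in untemplated As, so that a PAS next to genomic As is told from a tail only by the As beyond them.

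The 3′READS library of siCtrl held 8057201 reads at PASs on the strand of a gene and the 3′READS+ library 2749165. One read was worth 0.124 RPM (such reads scaled to a total of 1e6 per library) in the former and 0.364 RPM in the latter, and a count of 0 allowed up to 0.372 and 1.09 RPM. The siStar-PAP libraries held 11120874 and 2347192 reads. TUT1, which encodes Star-PAP, was at 10.3 RPM in siCtrl and 0.180 RPM in siStar-PAP with 3′READS. With 3′READS+ it had 6 and 4 reads, 2.18 and 1.70 RPM, too few to check the KD there.

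The sequences that end at the main PASs of some of the genes with the highest levels or largest differences, picked after the values were seen, are shown first. Each is the 30 nt up to and including the PAS on the strand of the gene (hg19), the PASs being assigned to the last exon of the gene in the deposited tables. Capitals mark the polyadenylation signal (AATAAA, otherwise ATTAAA, otherwise one of 10 single-base variants, namely TATAAA or its like with CATAAA or with GATAAA, then AGTAAA and also ACTAAA, then AAGAAA and also AATGAA, and last AATATA with AATACA and also AATAGA) and a run of 3 or more genomic As that ends at the PAS. PASs that gave far more reads in 3′READS+ were those of RPL27 (chr17:41154947-41154976, plus strand), MEA1 (chr6:42979965-42979994, minus strand), EEF2 (chr19:3976054-3976083, minus strand), KIAA0284 (chr14:105363055-105363084, plus strand), H2AFX (chr11:118964584-118964613, minus strand) and PSMD11 (chr17:30809369-30809398, plus strand).
RPL27: tttgatcATTAAAaattataaagAAAAAAA
MEA1: gAATAAAgcaccctatgtacacagccAAAA
EEF2: attggaatAATAAAtttgataaggtggtga
KIAA0284: tctAATAAAtcattcttctatcacatggca
H2AFX: attttATTAAAggattgttttttttttAAA
PSMD11: cAATAAAaataatttttttttttttcAAAA

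PASs that gave far more reads in 3′READS were those of NME2 (chr17:49249076-49249105, plus strand), GPX1 (chr3:49394609-49394638, minus strand), RPLP1 (chr15:69747856-69747885, plus strand), RPS28 (chr19:8387251-8387280, plus strand), FASN (chr17:80036214-80036243, minus strand) and PSENEN (chr19:36237874-36237903, plus strand).
NME2: tatttgccAATAAAgcttttggaagccgga
GPX1: ccactAATAAAgtgccgggtgtcagcagaa
RPLP1: ataacatgttcAATAAAaagctgaacttta
RPS28: tttaAATAAAgcgtttgtgtttcaagttaa
FASN: ctcccacaATTAAAccgcatgtgatctcca
PSENEN: gacatcccccAATAAAggaccctaactttc

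All 12 of these picked PASs hold AATAAA or ATTAAA. Among those not shown, no signal was found for RPL13, read more in 3′READS+, and DRG1, read more in 3′READS. A run of 3 or more As ends at 4 of the 6 PASs read more in 3′READS+ and at none of the 6 read more in 3′READS. Of all last-exon PASs, 20.6% end in such a run. The PASs of RPL18, NDUFB5 and TCTN1, also read more in 3′READS+, end in 1 A, and that of CCT8, read more in 3′READS, ends in 3.

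Which genes gave the most reads differed between the siCtrl libraries of the protocols, which are also the batches. In siCtrl with 3′READS, the most-read genes included SENP3, a SUMO protease, at 32450 RPM, RPLP1, a protein of the ribosomal stalk, at 24633 RPM, PRDX4, a peroxiredoxin, at 23314 RPM, and PSENEN, a subunit of γ-secretase, at 18245 RPM. The same genes were at 5318, 2070, 1803 and 1986 RPM with 3′READS+. There the most-read genes included RPL27, a protein of the large ribosomal subunit, at 26457 RPM, EEF2, the elongation factor of translocation, at 22818 RPM, MEA1 at 19802 RPM, NDUFB5, a subunit of respiratory complex I, at 12147 RPM and RPL18 at 11881 RPM. With 3′READS these 5 genes were at 17.3, 721, 890, 1140 and 3604 RPM. SENP3 also varied within 3′READS, from 3459 RPM in siPAPα to 32450 RPM in siCtrl. That range encloses both of its 3′READS+ values, 5318 RPM in siCtrl and 4699 RPM in siStar-PAP. For RPLP1, PRDX4 and PSENEN all libraries of 3′READS lay above both of 3′READS+. Of the 100 most-read genes of each siCtrl library, 30 were shared, against 77 shared by siCtrl and siStar-PAP within 3′READS and 78 within 3′READS+. Among the 1000 most-read genes, 455 were shared between the siCtrl libraries, and 809 and 851 within the protocols. The 100 most-read genes took 40.6% of the siCtrl reads in 3′READS and 36.9% in 3′READS+.

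Reads were found for 14296 genes in the 3′READS library of siCtrl and for 13324 in the 3′READS+ library, 12590 of them in both. More than 50 reads over both libraries were present for 9743 genes. By the rule of a change above 2-fold, 2874 of them (29.5%) were higher in 3′READS+, 2973 (30.5%) were lower and 3896 lay within 2-fold. Thus 60% of genes were past 2-fold between libraries of the same condition, whereas siStar-PAP and siCtrl differed past 2-fold at 28.5% of 10079 genes within 3′READS and 15.7% of 7127 genes within 3′READS+. A change above 8-fold was found for 16.1% of genes between the protocols, 806 higher and 767 lower, and for 1.08% and 0.239% within them. Above 32-fold were 216 genes higher and 214 lower. Across the 9570 genes with reads in both siCtrl libraries, log2 RPM gave a Pearson r of 0.50 and a Spearman rho of 0.48 (across genes, which are not independent replicates). The same r was 0.91 between siCtrl and siStar-PAP within 3′READS and 0.92 within 3′READS+.

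**Figure D1:**
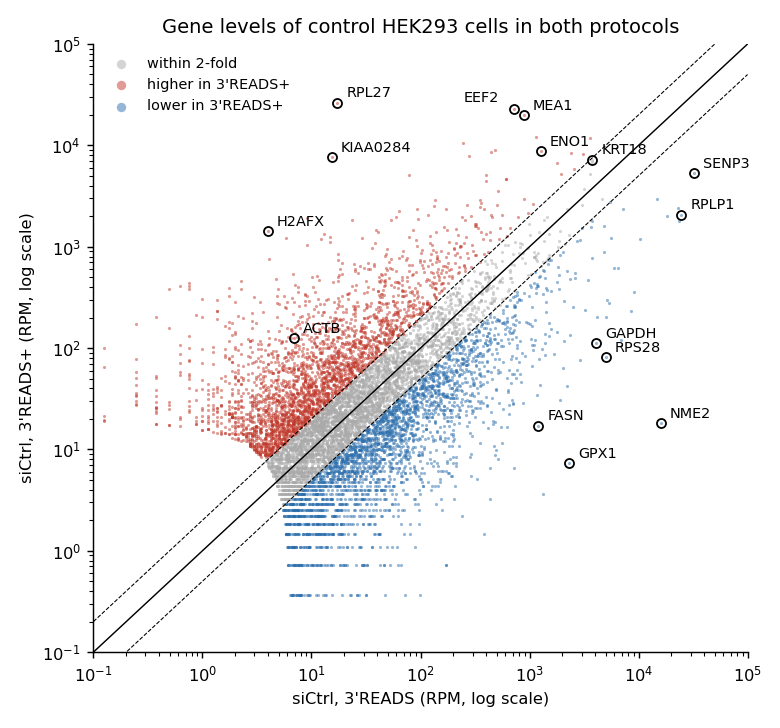
Level of each gene in siCtrl cells with 3′READS (x axis, RPM, log scale) and 3′READS+ (y axis, RPM, log scale), for genes with more than 50 reads over both libraries and reads in each (n = 9570). Points are genes (red higher, blue lower and grey within 2-fold, with some named genes circled), the solid line is equality and the dashed lines are 2-fold. RPL27, KIAA0284 and H2AFX lie far above the lines and NME2, GPX1 and FASN far below.

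The differences recurred in the siStar-PAP pair. Of the 2874 genes higher in 3′READS+ in siCtrl, 2802 were also higher in siStar-PAP and 2500 were past 2-fold, and of 2972 lower genes with a ratio there 2777 were also lower and 2192 past 2-fold. Over the 9433 genes with reads in all 4 libraries, the log2 ratios of both pairs gave r = 0.89 and rho = 0.88, as a description, since both pairs share the protocols and batches. In edgeR's quasi-likelihood test over the 4 libraries, with siCtrl or siStar-PAP as the block, which leaves 1 degree of freedom, 2944 of 11878 genes (24.8%) were higher in 3′READS+ and 3110 (26.2%) lower at a Benjamini-Hochberg adjusted p below 0.05, 51% in all. The count rests on few libraries. Without the block, it was 1439 over both directions when the siCtrl library of 3′READS+ was left out, and 3693 when the siStar-PAP library of 3′READS+ was. Against the range of all 5 libraries of 3′READS, both 3′READS+ libraries lay above or below it for 5921 of the 9743 genes (60.8%), a comparison added after the values were seen.

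**Figure D2:**
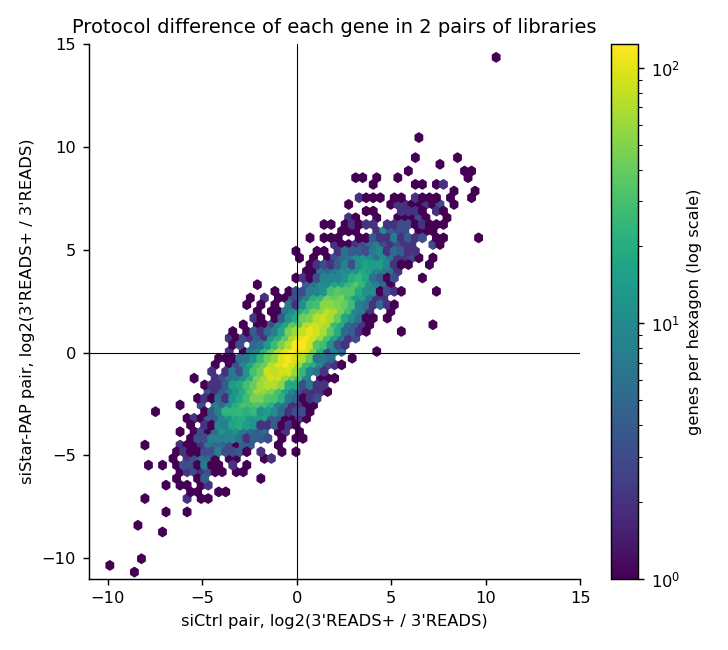
Log2 ratio of 3′READS+ over 3′READS for each gene in the siCtrl pair (x axis) and in the siStar-PAP pair (y axis), which share no library, for the 9433 genes with more than 50 siCtrl reads and reads in all 4 libraries. Colour gives the number of genes per hexagon on a log scale. The genes lie along the diagonal (r = 0.89) and spread over more than 32-fold in either direction.

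RPL27 differed most among the genes higher in 3′READS+ that had at least 20 reads in each siCtrl library, passed the edgeR test and went the same way in siStar-PAP. It had 139 reads in siCtrl with 3′READS (17.3 RPM) and 72734 with 3′READS+ (26457 RPM), a log2 ratio of 10.58 with a counting interval of 10.34 to 10.83. In siStar-PAP it was at 2.25 and 41280 RPM, and the other 3 libraries of 3′READS lay between 1.67 and 5.53 RPM. With 3′READS, 138 of the 139 reads lay at PASs in introns, while 72731 of those with 3′READS+ came from the last-exon PAS shown, which ends in 7 As. That PAS had 0 reads in siCtrl with 3′READS although the table of 3′READS lists it, so its level was at least 71053-fold higher against the 3 reads that a count of 0 allows. KIAA0284 went from 15.4 to 7628 RPM and H2AFX, the histone variant that is phosphorylated at DNA breaks, from 3.97 to 1421 RPM. For H2AFX the 5 libraries of 3′READS lay between 1.71 and 5.93 RPM and those of 3′READS+ were at 1421 and 1276 RPM, and the edgeR log2 difference was 8.74 ± 0.49 (SE, Benjamini-Hochberg adjusted p = 2.1e-11).

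The other genes of this group were PARD3, a polarity protein, C19orf50, PSMD11, a subunit of the proteasome lid, TNRC18, CDKN2A, which encodes inhibitors of the cell cycle, TCTN1, a protein of the ciliary transition zone, and DCAF4. Their siCtrl levels were 2.98 to 13.0 RPM with 3′READS and 319 to 1933 RPM with 3′READS+, log2 ratios of 6.66 to 7.72. The gain of PARD3 lay in introns, which held 5306 of its 5313 reads with 3′READS+ and 10 of 74 with 3′READS, and its last-exon PASs had 7 and 64 reads. All reads of TNRC18 lay at intronic PASs in both libraries. In C19orf50 the main PASs of the 2 tables lay 7 nt apart. In PSMD11, the PAS shown, with a run of 4 As, had 1 read with 3′READS and 2008 with 3′READS+, while a PAS further upstream that ends in 1 A had 16 and 37 reads.

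NME2, a nucleoside diphosphate kinase, differed most in the other direction. It had 128431 reads in siCtrl with 3′READS (15940 RPM) and 50 with 3′READS+ (18.2 RPM), a log2 ratio of -9.78 with an interval of -10.21 to -9.38. In siStar-PAP it was at 23427 and 17.9 RPM, and over the 5 libraries of 3′READS it lay between 14040 and 23537 RPM. Its PASs are also listed under the overlapping gene NME1-NME2, so its reads cannot be assigned to one of these genes. GPX1, a selenium-dependent glutathione peroxidase, had 18727 reads with 3′READS (2324 RPM) and 20 with 3′READS+ (7.27 RPM). Its edgeR log2 difference was -8.67 ± 0.52 (SE, Benjamini-Hochberg adjusted p = 2.93e-11).

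FASN, the fatty acid synthase, was at 1199 and 17.1 RPM, PGD of the pentose phosphate pathway at 516 and 8.0 RPM, SH3BGRL3 at 1917 and 30.6 RPM, and RPS28 of the small ribosomal subunit at 5026 and 80.8 RPM. DRG1, a GTPase, was at 6912 and 120 RPM, C10orf28 at 481 and 8.73 RPM, ATP6V0A1, a subunit of the vacuolar ATPase, at 2200 and 41.8 RPM, and RPA3, the smallest subunit of replication protein A, at 494 and 9.82 RPM. FASN shows how far libraries of 1 protocol also differ, since siStar-PAP gave 367 and 23.0 RPM and so a log2 ratio of -4.0 beside -6.13 in siCtrl. For each of the 10 lower genes, all 5 libraries of 3′READS lay above both libraries of 3′READS+. The same held for 2256 of all 2973 lower genes. The siCtrl and siStar-PAP libraries had also served to choose the 10, so this is no separate check.

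Reference genes were among those that differed. GAPDH, the glycolytic enzyme often used as a reference, was at 4059 RPM with 3′READS and 111 RPM with 3′READS+, a log2 ratio of -5.19 with an interval of -5.36 to -5.03. In siStar-PAP it was at 5625 and 156 RPM, a log2 ratio of -5.17. All reads came from 1 PAS in the last exon. ACTB, cytoplasmic β-actin, went the other way, with 56 reads (6.95 RPM) and 343 reads (125 RPM) in siCtrl and 36.4 and 388 RPM in siStar-PAP. EIF4A1, the helicase of translation initiation, was at 203 and 963 RPM, and its PAS at chr17 position 7482324 took 96.5% of its last-exon reads with 3′READS and 53.3% with 3′READS+.

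Among groups of genes, the enzymes of glycolysis had the lowest median in the siCtrl pair. Of 16 listed members, 14 had more than 50 reads, and 8 of these were lower in 3′READS+ and 2 higher, with a median log2 ratio of -1.68 beside -0.03 for all genes, of which 30.5% were lower and 29.5% higher. Besides GAPDH, LDHA (294 and 13.5 RPM), HK1 (46.3 and 3.27 RPM), PFKP (72.4 and 9.82 RPM), PFKM (163 and 24.4 RPM) and GPI (930 and 182 RPM) were lower. ENO1 (1268 and 8776 RPM) and PKM2 (258 and 1826 RPM) were higher, and PGK1 (138 and 130 RPM) was level. In the siStar-PAP pair the median of the list was -0.73, and that of the replication-dependent histones, -1.05, was lower. Summed over the list, the levels were 8115 RPM with 3′READS and 11643 RPM with 3′READS+, so the sum went against the median. The largest member was GAPDH (4059 RPM) with 3′READS and ENO1 (8776 RPM) with 3′READS+.

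Cytosolic ribosomal proteins, whose mRNAs are short, abundant and translated together, differed in both directions. Of 77 listed members, 71 passed the filter on reads, 34 were lower (30.5% of all genes were), 21 higher (29.5% of all genes) and 16 within 2-fold, with a median log2 ratio of -0.91 (-0.62 in the siStar-PAP pair). Yet their summed share of reads was alike, 7.45% with 3′READS and 8.22% with 3′READS+ in siCtrl and 13.1% with both in siStar-PAP. RPS12 (1437 RPM with 3′READS, 11579 reads) and RPL10A (351 RPM) had 0 reads with 3′READS+, and RPL10 (435 and 3.27 RPM) and RPS20 (726 and 6.55 RPM) were lower. Besides RPL27, RPL38 (477 and 8931 RPM), RPL23 (14.9 and 1258 RPM), RPLP0 (1.99 and 144 RPM) and RPL34 (6.95 and 287 RPM) were higher. RPL35 (1111 and 784 RPM) lay within 2-fold. Ribosomal protein genes have many processed pseudogenes, and since only uniquely mapped reads were kept, part of their reads may be missing in either library, which was not tested.

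Nuclear long noncoding RNAs and hosts of small nucleolar RNAs had the highest median, 1.30, with 8 of 13 kept members higher and 3 lower, of 17 listed, beside 29.5% and 30.5% of all genes. NEAT1, the RNA scaffold of paraspeckles, was at 41 and 366 RPM, with an edgeR log2 difference of 3.13 ± 0.35 (SE, Benjamini-Hochberg adjusted p = 1.57e-07), and its main PAS at chr11 position 65193997 took 77.9% and 99.5% of its last-exon reads. MALAT1, whose usual 3′ end carries no poly(A) tail, had 33 and 27 reads (4.10 and 9.82 RPM). TUG1 (68.1 and 363 RPM), EPB41L4A-AS1 (62.2 and 446 RPM), SNHG6 (5.21 and 167 RPM) and SNHG12 (0.496 and 379 RPM) were higher, whereas SNHG8 (144 and 54.6 RPM), CRNDE (63.2 and 30.9 RPM) and SNHG1 (7.94 and 0.364 RPM) were lower.

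The machinery that makes these ends had a median of 0.89, with 8 of 19 kept members higher and 6 lower, of 21 listed, beside 29.5% and 30.5% of all genes. Among subunits of CPSF, which binds the hexamer and cuts, CPSF1 (17.9 and 530 RPM), CPSF3, the endonuclease (192 and 596 RPM), and CPSF4 (5.46 and 66.9 RPM) were higher, WDR33 (162 and 54.6 RPM) and FIP1L1 (6.08 and 0.727 RPM) were lower, and CPSF2 (59.9 and 33.8 RPM) lay within 2-fold. Of the CstF complex, which binds the downstream element, CSTF2 (9.06 and 80.8 RPM) was higher, CSTF1 (144 and 38.2 RPM) was lower and CSTF3 (96.2 and 192 RPM) lay just within 2-fold. NUDT21 of CFIm (21.2 and 163 RPM) and the tail-binding protein PABPN1 (0.621 and 70.9 RPM) were higher. The polymerase genes PAPOLA, which encodes PAPα (8.81 and 16.4 RPM), and PAPOLG, which encodes PAPγ (5 and 11 reads), were low in both libraries.

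Other lists had medians nearer to that of all genes, and their counts of higher and lower members are to be read beside the 29.5% and 30.5% of all genes. Splicing factors and hnRNPs stood at 0.51 (15 of 40 higher, 9 lower), chaperones at 0.19 (11 and 8 of 32), zinc finger genes at 0.14 (94 and 72 of 291), oxidative phosphorylation subunits at 0.08 (17 and 23 of 70), the cytoskeleton at 0.06 (8 and 7 of 26), translation factors at -0.03 (11 and 13 of 36), proteasome subunits at -0.41 (10 and 13 of 33), histone variants at -0.66 (2 and 5 of 11) and mitochondrial ribosomal proteins at -0.75 (20 and 28 of 70). Under TMM scaling every ratio shifts by -0.14, which turns the medians of oxidative phosphorylation, the cytoskeleton and zinc finger genes to the other side of 0. The medians of mitochondrial ribosomal proteins and histone variants were near 0 in the siStar-PAP pair. Single members of a list differed in both directions. TRA2B, a splicing regulator, was at 47.3 and 812 RPM and U2AF1, which binds the 3′ splice site, at 1865 and 381 RPM. P4HB, the protein disulfide isomerase, was at 439 and 8628 RPM and CCT8 of the chaperonin TRiC at 211 and 7.27 RPM. NDUFA3 was at 2.98 and 72.7 RPM and NDUFS5, also of complex I, at 2879 and 75.7 RPM. HNRNPA1, at 611 and 4667 RPM, shares its PASs with the listed pseudogene HNRNPA1P10.

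Replication-dependent histone genes, whose mRNAs mostly end in a stem-loop without a tail, gave few reads in both libraries. Of 47 listed genes, 9 had more than 50 reads, with a median log2 ratio of -0.35. Of these 9, 3 were higher and 2 lower, beside 29.5% and 30.5% of all genes. Of the 47, 8 were at 0 with 3′READS and 25 at 0 with 3′READS+. Their summed share was 0.117% and 0.0990% of reads. HIST1H2BK was at 350 and 548 RPM and HIST1H2AG at 423 and 118 RPM.

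**Figure D3:**
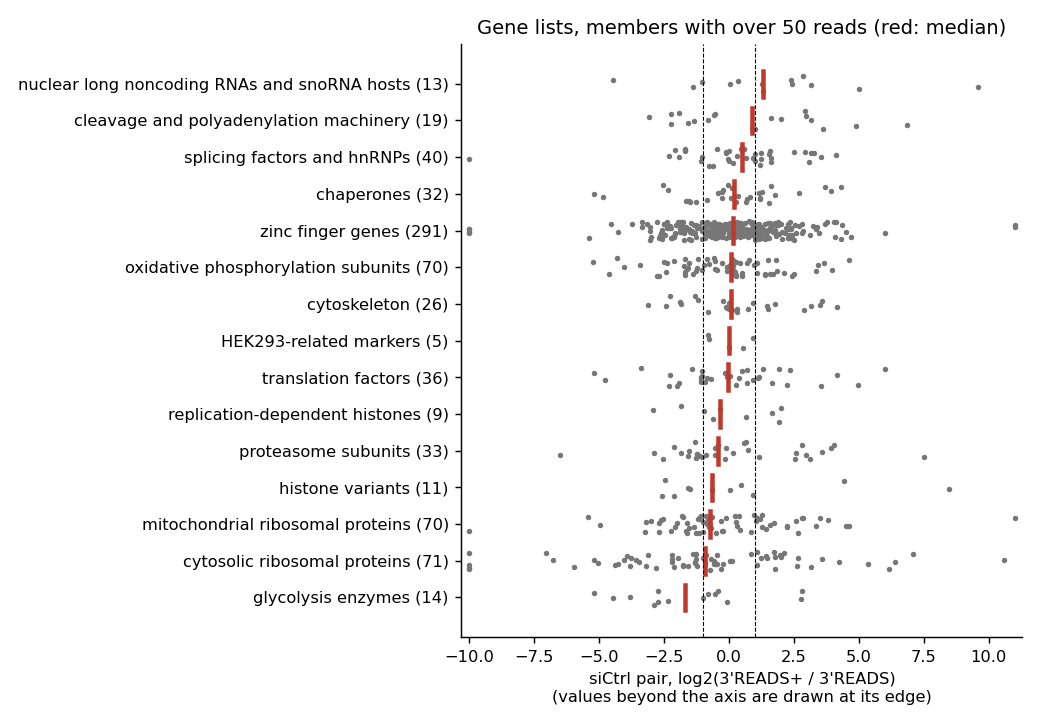
Log2 ratio of 3′READS+ over 3′READS in siCtrl for members of 15 gene lists with more than 50 reads (grey points; their number is in parentheses) and the median of each list (red bars). Dashed lines are 2-fold, and values beyond the axis are drawn at its edge. Medians run from -1.68 (glycolysis enzymes) to 1.30 (long noncoding RNAs and snoRNA hosts), and members of most lists spread to both sides.

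Embryonic kidney and neural-like markers reported for HEK293 cells were then checked. Of 11 listed, the 5 with more than 50 reads all lay within 2-fold: KRT18, a keratin of simple epithelia (3756 and 7211 RPM), VIM (215 and 124 RPM), TUBB3 (72.6 and 72.0 RPM), NEFL (52.0 and 76.4 RPM) and CDH2 (51.6 and 30.2 RPM). Of all 9743 genes with more than 50 reads, 3896 lay within 2-fold. EdgeR tested 9 of the markers over the 4 libraries. Of these, 3 were higher and 1 was lower in 3′READS+, beside 24.8% and 26.2% of all genes tested. KRT18 did not pass (log2 difference 0.57 ± 0.39 SE, Benjamini-Hochberg adjusted p = 0.23). The remaining 6, KRT8, LHX1, NEFM, NES, PAX2 and WT1, were at 0 to 7.64 RPM. Of 23 markers of blood, fibroblasts, liver, endothelium and mature kidney tubule, 9 were listed, 4 at 0 with 3′READS and 5 at 0 with 3′READS+, and their summed level was 9.31 and 16.4 RPM. The highest were APOA1 (5.46 and 4.0 RPM) and LRP2 (2.48 and 6.91 RPM). PTPRC, ALB, COL1A2 and PECAM1 were not among the listed genes.

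The tables of the protocols also differed in the PASs they list. The tables list 51882 PASs for 3′READS and 34849 for 3′READS+, of which 20314 have the same position, 39.2% and 58.3% of the tables. Those shared PASs held 92.8% of siCtrl reads in 3′READS and 85.7% in 3′READS+, and 96.9% and 95.5% when positions within 24 nt of one of the other table were counted. PASs of 1 table only were weakly used, with a median of 2 siCtrl reads in 3′READS and 3 in 3′READS+. A PAS entered a table only with enough reads and more than a small share of its gene in at least 1 sample, so a PAS that is not listed need not have had 0 reads. The table of 3′READS holds siCtrl, siStar-PAP, siPAPα and siPAPγ, and that of 3′READS+ only siCtrl and siStar-PAP, with fewer reads. The length and overlap of the lists therefore compare unlike sets of libraries and depths, as well as protocols.

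Among the 9576 shared PASs with more than 50 siCtrl reads, 2551 (26.6%) were higher and 3996 (41.7%) lower in 3′READS+, with a median log2 ratio of -0.51. The excess of lower PASs depended on depth and filter: with the reads of 3′READS thinned to the depth of 3′READS+, 2226 were higher and 2626 lower (median -0.20), and with no filter 6677 and 7051 (median -0.03). The PAS ratios of the siCtrl and siStar-PAP pairs gave r = 0.89 over 9185 PASs.

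By annotated region the siCtrl libraries were alike. The last exon took 95.2% of reads in both, introns 4.58% (95% Clopper-Pearson interval 4.57 to 4.60) with 3′READS and 4.42% (4.40 to 4.44) with 3′READS+, and exons upstream of the last one 0.245% and 0.339%. With siStar-PAP the same protocols gave 4.76% and 4.31% for introns and 0.188% and 0.266% for upstream exons. The intron intervals of the siCtrl libraries do not overlap, but they treat each read as a separate molecule, which is not known. Single PASs also weigh on these shares. The most-read intronic PAS of PARD3 held 5217 of the 121520 intronic reads of siCtrl with 3′READS+. Whether these gaps exceed counting error cannot be told, and the spread between replicates is not known.

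AATAAA was the most frequent signal at last-exon PASs. Searched on the strand of the gene in the 40 nt before the PAS, AATAAA was found at 45.6% of all 46880 listed last-exon PASs, ATTAAA without AATAAA at 15.5%, another single-base variant at 20.9% and none at 18.1%. Weighted by siCtrl reads, PASs with AATAAA took 72.6% of last-exon reads in 3′READS and 68.3% in 3′READS+, and those with ATTAAA 13.4% and 18.2%. The RPL27 PAS, which has ATTAAA, alone held 72731 of the 2618327 last-exon reads in 3′READS+ and 0 in 3′READS. Among shared last-exon PASs with more than 50 reads, AATAAA stood at 65.7% (63.8 to 67.6) of the 2404 higher in 3′READS+, 60.8% (59.0 to 62.6) of the 2828 within 2-fold and 60.1% (58.5 to 61.7) of the 3636 lower. With more than 200 reads the share of lower PASs was 65.1% and that of higher PASs 66.8%, a smaller gap.

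The sequence just before the listed PAS position differed more. In the last 10 nt before the PAS, A made up 39.5% of bases at PASs higher in 3′READS+, 32.8% at those within 2-fold and 31.4% at those lower, whereas in the 40 nt after the PAS it made up 20.4%, 19.6% and 20.3%. The run of genomic As that ends at the PAS, as in RPL27 above, was therefore counted for each last-exon PAS, a feature chosen after the values were seen. Of all last-exon PASs, 20.6% end in a run of 3 or more As and 1.17% in 7 or more. The last base is A at 86.8% of them and the next base is A at 0.004%, so a listed PAS lies at the end of a run of As. Where within such a run the RNA was cut cannot be told, and the window after the PAS almost never begins with A.

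For shared last-exon PASs with more than 50 siCtrl reads, the median log2 ratio was -0.77 at a run of 0 (1198 PASs), -0.72 at 1 (4207), -0.37 at 2 (1969), 0.03 at 3 (973), 0.80 at 4 (360), 1.43 at 5 (113), 3.91 at 6 (28) and 6.44 at 7 or more (20). The PASs with runs of 7 or more passed the filter on reads through 3′READS+, as none was above 18.2 RPM in 3′READS and 5 with a run of 6 were, so their direction was set by the filter. The siStar-PAP pair gave -0.60, -0.62, -0.28, 0.08, 0.81, 1.64, 4.19 and 7.05 in the same order. Ratios at each run length spread widely, with quartiles of -2.19 and 0.90 at a run of 1 and -0.87 and 2.94 at a run of 4.

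PASs with long runs were also often missing from the table of 3′READS. Of last-exon PASs with more than 50 siCtrl reads in 3′READS+ (18.2 RPM), 87.7% were listed there at a run of 1, 70.4% at 4, 53.8% at 6 (21 of 39) and 28.8% at 7 or more (19 of 66). In the reverse direction no such fall was seen, as 90.5% of PASs above the same level in 3′READS were listed for 3′READS+ at a run of 1 and 94.0% at 4, and no PAS of 3′READS with a run of 7 or more reached that level. Weighted by reads, PASs with runs of 4 or more took 2.22% of last-exon reads of siCtrl in 3′READS and 13.6% in 3′READS+ (1.87% and 14.3% in siStar-PAP), and those with runs of 7 or more 0.00879% and 3.59%. Few PASs weigh heavily in these shares. The RPL27 PAS alone held 72731 of the 2618327 last-exon reads of siCtrl in 3′READS+ (96888 of 2239753 in siStar-PAP), most of the share at 7 or more. The MEA1 PAS, with 4 As, held 54439 in siCtrl.

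When PASs within 24 nt of each other were merged over both tables, which removes differences in the position of the representative PAS, the medians were -0.74 at a run of 0 and 1.34 at a run of 4. Of 72 merged PASs with a run of 7 or more, which again passed through 3′READS+, 44 were at 0 or not listed in siCtrl with 3′READS. The trend was present with each signal. At PASs with AATAAA the median was -0.52 for runs of 0 to 2 (4573 PASs) and 0.58 for 3 or more (910), and at PASs with ATTAAA it was -0.72 (1225) and 0.51 (266). With all last-exon PASs of 3 or more As left out, 5089 of 8486 genes (59.97%) were still past 2-fold, and EEF2, KIAA0284 and NME2, shown above, have PASs that end in 1 A.

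**Figure D4:**
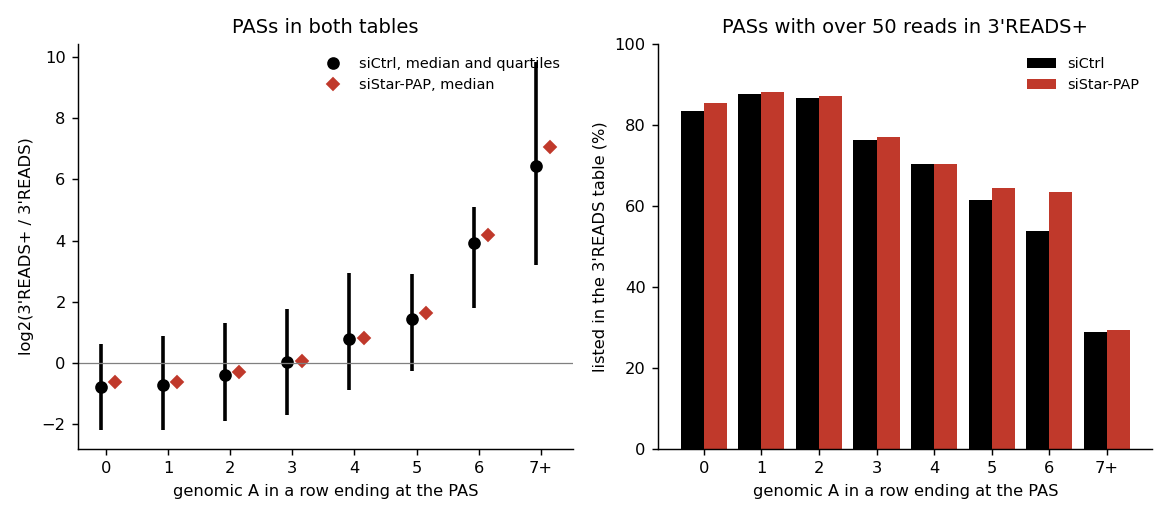
Left, log2 ratio of 3′READS+ over 3′READS (y axis) at last-exon PASs of both tables with more than 50 reads, by the number of genomic As in a row that end at the PAS (x axis; 7+ is 7 or more). Black points and lines are the median and quartiles in siCtrl, red diamonds the median in siStar-PAP. Right, percent of last-exon PASs with more than 50 reads in 3′READS+ that are listed for 3′READS. The median climbs from -0.77 at 0 to 1.43 at 5 As in siCtrl, and to 6.44 at 7+, where PASs passed the filter through 3′READS+, while the share listed falls from 87.7% at 1 A to 28.8%.

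PAS choice within genes differed more between the protocols, which are also the batches, than within them. Of 5114 genes with more than 1 last-exon PAS and at least 20 last-exon reads in each siCtrl library, 2976 (58.2%) had the same most-used PAS in both, and 67.5% had it within 24 nt. The shares within a protocol, for siCtrl against siStar-PAP, were 85.6% with 3′READS and 92.2% with 3′READS+. The share fell with the A run of the PAS most used in 3′READS+, from 63.2% of 2116 genes at a run of 1 to 39.6% of 338 at 4 and 7.27% of 55 at 7 or more. Classing by the PAS that leads in 3′READS+ favours PASs read more there. As no PAS with a run of 7 or more was above 18.2 RPM in 3′READS, the low share at 7 or more was largely set by this choice.

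Relative use of the distal against the proximal PAS was taken as RED, the difference in the log2 ratio of distal to proximal reads between 3′READS+ and 3′READS. Among 1140 genes with their 2 leading PASs in both tables, RED was above 1 in 449 and below -1 in 419, with a median of 0.05. The values recurred in the siStar-PAP pair (r = 0.90 over 821 genes). RED was beyond 1 in either direction in 76.1% of genes between the protocols, and in 40.03% and 32.6% for siStar-PAP against siCtrl within 3′READS and 3′READS+. Its median was 0.94 in the 164 genes whose distal PAS has an A run longer by 2 or more, 0.05 in the 798 genes with runs within 1 of each other and -0.54 in the 178 genes whose proximal PAS has the longer run.

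Between the protocols, 8 genes were taken for the largest change in PAS use, among those with enough reads and the same direction in siStar-PAP. They differed in their leading PAS. Their PASs are shown for 3 genes, first the PAS most used with 3′READS and then that with 3′READS+. They are YWHAE (chr17:1247780-1247809 and chr17:1247840-1247869, minus strand), HNRNPC (chr14:21677543-21677572 and chr14:21678705-21678734, minus strand) and CSTF1 (chr20:54979282-54979311 and chr20:54979076-54979105, plus strand).
YWHAE in 3′READS: ttctaaAATAAAatctctagtccaaacaca
YWHAE in 3′READS+: aacttaAATAAAacaaacctaaattAAAAA
HNRNPC in 3′READS: taagatgctAATAAAacctgtttaatatta
HNRNPC in 3′READS+: ATTAAAccaggaatttggagAAAAAAAAAA
CSTF1 in 3′READS: ttattctgatAATAAAgctcagatctgcaa
CSTF1 in 3′READS+: ggatagggcATTAAAgtgcttttgacatga

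YWHAE, which encodes 14-3-3ε, had all of its 3232 last-exon reads of siCtrl at the distal PAS with 3′READS and all of its 404 at a PAS 60 nt upstream, with a run of 5 As, with 3′READS+. In HNRNPC, which encodes the hnRNP that binds uridine tracts, the distal PAS took 67.3% of 358 reads with 3′READS and 1.32% of 1439 reads with 3′READS+, where a PAS that ends in 10 As took 94.4%. KHSRP, an RNA-binding protein of mRNA decay, used 1 PAS for all 110 reads with 3′READS, and that PAS took 0.741% with 3′READS+, where a more distal one took 66.2% and a proximal one with 10 As 33.1%.

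The other 5 genes did not all carry long runs. In CSTF1 the PAS at position 54979311 took 94.9% of reads with 3′READS and 0.952% with 3′READS+, where the PAS at position 54979105, upstream, took 88.6%, although neither ends in more than 2 As. TPX2, a spindle assembly factor, used its distal PAS for all 3488 reads with 3′READS and for 6.66% with 3′READS+, where a proximal PAS with 2 As took 93.3%. At the level of the gene TPX2 hardly differed, at 433 and 497 RPM. In VRK1, a nuclear kinase, both PASs end in 4 As, and use moved from 75.7% at the proximal one to 97.4% at a PAS 65 nt downstream. In GNL3L, a nucleolar GTPase, a PAS with no signal found and 1 A went from 1.00% to 94.6%, and in AGFG1 a PAS with 1 A that is not listed for 3′READS took 91.3% with 3′READS+. The same direction in siStar-PAP was a condition for choosing these 8 genes, so it is no separate check. In siStar-PAP the use of these PASs with 3′READS+ was 77.2 to 100%.

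**Figure D5:**
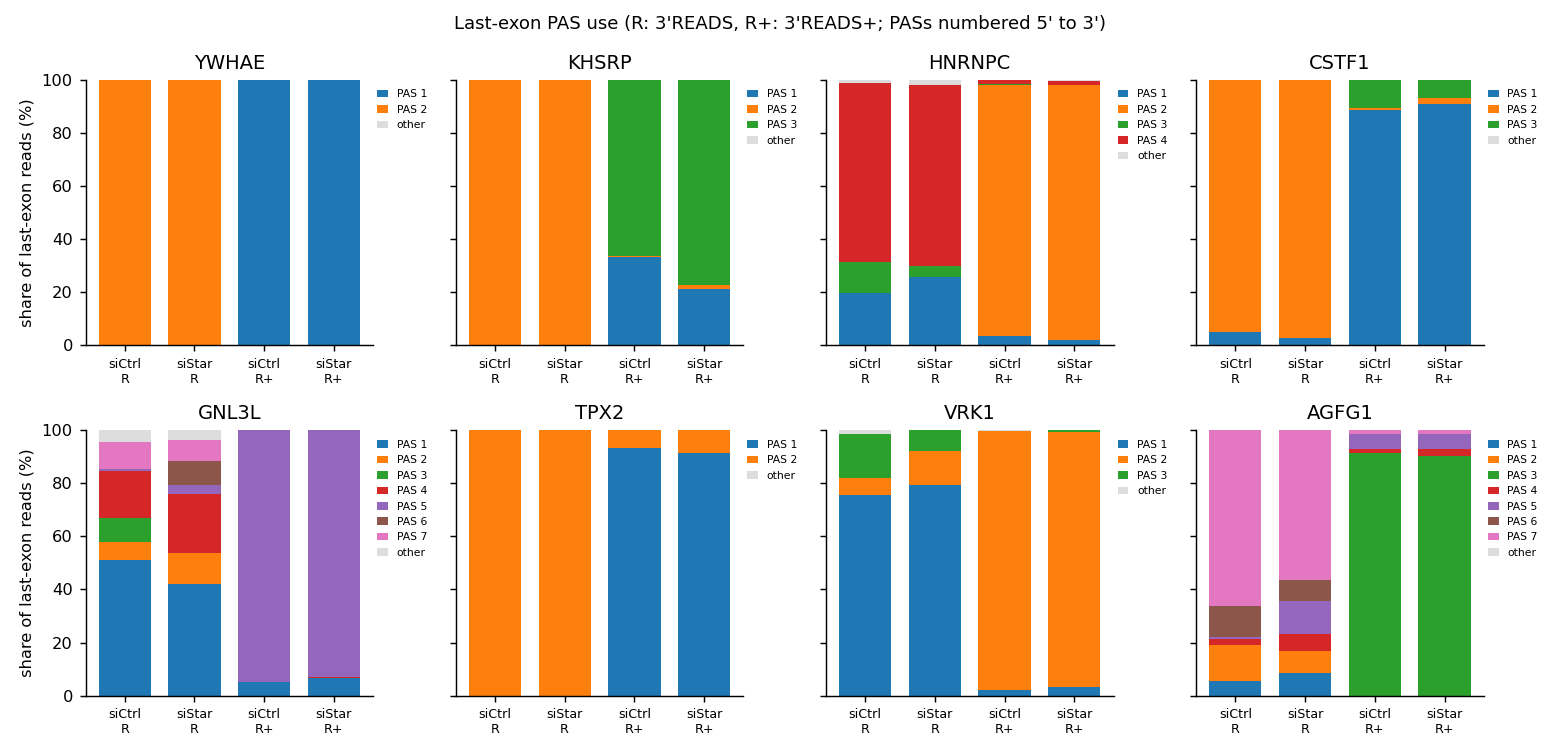
Share of last-exon reads (y axis, %) at each PAS of the 8 genes with the largest change in PAS use, in siCtrl and siStar-PAP (siStar) with 3′READS (R) and 3′READS+ (R+), 1 library per bar. PASs are numbered 5′ to 3′, and grey is the sum of PASs under 5% in all libraries. Bars of the same protocol resemble each other, and in each gene the PAS that leads in both R bars is not the one that leads in both R+ bars. The genes were chosen for a change of the same direction in siCtrl and siStar-PAP.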

How the data were processed

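Total RNA of HEK293 cells treated with siRNA was made into 3′ end libraries, 1 per condition and protocol. Per the study's methods, reads were mapped to hg19 with Bowtie2 (version not given in the sources used here), kept at a MAPQ over 10 and counted as PAS-supporting with at least 2 untemplated Ts. PASs within 24 nt were clustered and weakly used ones dropped. The steps that differ in 3′READS+ are not given in the sources used here. The authors deposited whole-number counts per PAS, not normalized, with gene, region and position. The tables were joined on gene sums and on PAS position, on sense rows, and counts were divided by the sense total of each library to give RPM.

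With 1 library per group, genes and PASs with more than 50 siCtrl reads over both libraries were called at a change above 2-fold, with no p-value. Intervals are exact binomial (Clopper-Pearson, 95%) and cover counting error only. The 4 libraries of siCtrl and siStar-PAP were tested with edgeR 4.0.16 in R 4.3.3 (quasi-likelihood, TMM, condition as a block, 1 residual degree of freedom, Benjamini-Hochberg). DESeq2 1.42.0 was an alternative. Nothing says that these libraries came from separate cultures beyond their labels. With 1 library per condition and protocol, the residual is the gap between the protocol differences of siCtrl and siStar-PAP, moderated over genes. The p-values and SEs rest on this gap and not on a spread between replicates. On simulated data for this comparison with 200 genes changed 4-fold, edgeR recovered 189 with 6 false calls among 11810 genes. The simulation gave every gene the same assumed dispersion and changed only those 200 genes, whereas 51% of genes were called in the data. It therefore gives no error rate for those calls. Signals and A runs were read from the hg19 sequence on the strand of the gene. Python 3.11.15, numpy 2.4.6, pandas 2.3.3, scipy 1.17.1 and matplotlib 3.10.9 were used.

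Named genes were the 15 of highest mean siCtrl RPM, the 10 with the largest ratio each way with at least 20 reads in each siCtrl library, a passed edgeR test and the same direction in siStar-PAP, 8 reference and polymerase-related genes, the leading and most different members of each list, and the 8 with the largest change in PAS use. For the last 8, at least 100 last-exon reads in each siCtrl library and the same direction in siStar-PAP were required. Further list members were named after their values were seen. The members, lists and rules were chosen with earlier results of these data known. Some items are not reported here. Alternatives covered scaling, filters, the fold, thinning, PAS joining, the other pair of libraries and leaving out each library. The other 3 libraries of 3′READS gave ranges only.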

Additional observations from a re-analysis of the deposited data

Results flagged for a closer look

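TUT1 differed in direction between the pairs of libraries. Its log2 ratio of 3′READS+ over 3′READS was -2.24 in siCtrl (83 and 6 reads) and 3.24 in siStar-PAP (2 and 4 reads), where it is the target of the KD. HIST2H2BC, a replication-dependent histone gene, had log2 ratios of 2.01 in siCtrl (109 and 150 reads) and -1.33 in siStar-PAP (12.9 and 5.11 RPM). Neither difference between the pairs was tested, as each condition had 1 library per protocol.

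Sites antisense to a gene and upstream of its start and not also listed on a sense row, which enter no comparison above, took 0.514% of the siCtrl reads in 3′READS (41598 reads at 1596 sites) and 0.980% in 3′READS+ (27217 reads at 1663 sites). In siStar-PAP they took 0.378% and 0.664%. The 10 most-read of these sites held 29.8% and 32.9% of the siCtrl reads at such sites.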

How the results depend on the processing

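The count of 5847 genes past 2-fold was 3463 with more than 200 reads, 9925 with no filter and 3099 at 4-fold. That of 6547 shared PASs was 3315, 13728 and 4045. With the PASS read totals of the study as depth, 2345 genes were higher and 3672 lower (39.0% of calls higher, against 49.2%). The share of genes with the same most-used PAS was 63.0% with at least 100 reads, 67.5% within 24 nt and 62.5% where the PAS of 3′READS+ ended in 0 to 2 As, and 85.6% and 92.2% within the protocols. The last-exon share was 94.7% and 94.3% with antisense sites included, 95.5% and 96.6% at shared PASs and 95.1% and 95.4% in siStar-PAP. AATAAA stood at 62.3% of higher and 55.6% of lower PASs in a window of 30 nt, and at 65.1% of lower PASs with more than 200 reads. The edgeR count of 6054 ranged from 1439 to 5100 with 1 library left out and no block, was 4668 without the block and 4595 by DESeq2. In the siStar-PAP pair, TUT1 (3.24) and HIST2H2BC (-1.33) reversed among the named genes past 2-fold, and VIM (0.82), HIST1H2BK (-0.55) and TPX2 (-0.55), within 2-fold in siCtrl, changed sign. The causes were not tested. Depth limits genes of few reads, and the protocol and the batch cannot be told apart.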
